A study of Mus musculus with 27 samples.

Results

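Nodal signals through activin receptors, and its range is set by a small set of dedicated genes. The 8 genes described here are the ligands Nodal and Gdf3, the coreceptors Tdgf1 (Cripto) and Cfc1 (Cryptic), the transcription factor Foxh1, and the secreted antagonists Lefty1, Lefty2 and Cer1. They were matched by gene symbol to their Ensembl identifiers, 8 of the 48795 genes in each file. The rule uses names and roles, but the genes were chosen with earlier results of these data known. Their shares are therefore set beside those of all genes as a description only. All 8 had enough counts to be tested, and 20839 genes were tested in all.

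Nodal and Gdf3 are ligands of the TGFβ superfamily that bind type I and type II activin receptors together with a membrane-anchored coreceptor of the EGF-CFC family, Tdgf1 or Cfc1. The activated receptors phosphorylate Smad2 and Smad3, which join Smad4 and reach DNA with partners such as Foxh1. In the mouse embryo the pathway induces Nodal itself and its antagonists Lefty1 and Lefty2, patterns the primitive streak and sets left-right asymmetry. Activin A uses the same receptors and Smads, but it does not need the EGF-CFC coreceptors and is not held back by the Lefty proteins.

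RNA was sequenced from mouse embryonic stem cells (ESC) and 8 groups derived from them, with 3 libraries in each of the 9 groups. Every library came from 1 clone, clone 7, of F1:C57BL/6 x CBA origin and Tesco-CFP; R26-rtTA XY genotype, in which the CFP reporter is driven by a Sox9 enhancer core active in Sertoli cells. The study sought culture conditions that take these cells to gonadal progenitors, and the IM1 to IM5 media set the presence of retinoic acid, Activin A and CHIR99021 against each other. The study calls the libraries of a group biological replicates, but the labels do not say that they were separate cultures, so p-values measure the spread between these libraries, which may be technical.

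ESC received none of the growth factors. The study describes their routine culture with leukemia inhibitory factor and the inhibitors CHIR99021 and PD0325901. A passage in serum replacement with leukemia inhibitory factor followed before differentiation. Which of these media the ESC libraries came from is not given, so CHIR99021 may have been present. EpiSC, an epiblast-like stage, were kept for 60 h in Activin A (20 ng/ml) and bFGF (12 ng/ml). M, an early mesoderm stage, were kept for 36 h in bFGF (20 ng/ml), BMP4 (10 ng/ml) and LY294002 (10 μM), a PI3-kinase inhibitor, without Activin A. The intermediate mesoderm groups then had 3.5 days in bFGF (5 ng/ml) and BMP4 (20 ng/ml), with nothing more in IM1. IM3 also had retinoic acid (100 nM), IM4 had retinoic acid and the GSK3 inhibitor CHIR99021 (0.3 μM), IM2 had retinoic acid and Activin A (10 ng/ml), and IM5 had all of them. The Sertoli-like cells (iSLC) were given Nr5a1 and Dmrt1 by virus, had 4 days of doxycycline in a Sertoli medium with Activin A (50 ng/ml), and were sorted for CFP.

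Between 35923040 and 84876603 expected counts were assigned to genes in each library. Marker genes followed the stage labels for EpiSC and M but not for every later group, with the summed level of 4 epiblast-like markers at 769 to 784 TPM (a level scaled per transcript length and per library) in EpiSC and 186 to 201 TPM in ESC. The summed level of 6 early mesoderm markers was 993 to 1089 TPM in M, although 1 of them, Msgn1, was at or under 3 counts in the ESC, intermediate mesoderm and iSLC libraries. This sum was already 370 to 393 TPM in EpiSC, beside 7.91 to 9.11 TPM in ESC. The summed level of 6 intermediate mesoderm and genital ridge markers was 477 to 511 TPM in IM3 and 347 to 384 TPM in IM4. It was 175 to 179 TPM in IM2, 118 to 123 TPM in IM5 and 83.9 to 97.8 TPM in IM1, all below the 189 to 224 TPM of M. In IM3 most of it was Gata4 (mean 340 TPM) and Wt1 (149 TPM), and in M Gata4 (150 TPM) and Lhx1 (56.5 TPM). By group mean, Gata4, Wt1 and Lhx9 were higher in IM3 and IM4 than in IM1, IM2 and IM5. Osr1, Lhx1 and Pax2 were lower there. Osr1 was at 1.11 TPM in IM3 and 0.98 TPM in IM4, against 3.49, 4.09 and 4.74 TPM in IM1, IM2 and IM5. The summed level of 7 Sertoli markers was 307 to 351 TPM in iSLC, mostly from the forced genes Nr5a1 (87.2 to 100.3 TPM) and Dmrt1 (192 to 228 TPM). Of the unforced markers, Sox9 was at 23.3 to 26.5 TPM in iSLC, below the 33.3 to 59.7 TPM of the IM1 to IM5 libraries, and Amh, Dhh, Cst9 and Ptgds were at 0.43 to 2.38 TPM, so the label of iSLC is not borne out by their levels. Dhh was above IM3 (1.53 to 2.38 against 0.66 to 0.72 TPM) and Cst9 below it (1.13 to 1.69 against 3.67 to 5.69 TPM), while Amh and Ptgds overlapped it. The study's other evidence for the label was the CFP reporter and tubule-like structures. These are bulk libraries, so fewer cells of a type and less RNA per cell cannot be told apart.

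**Figure D1:**
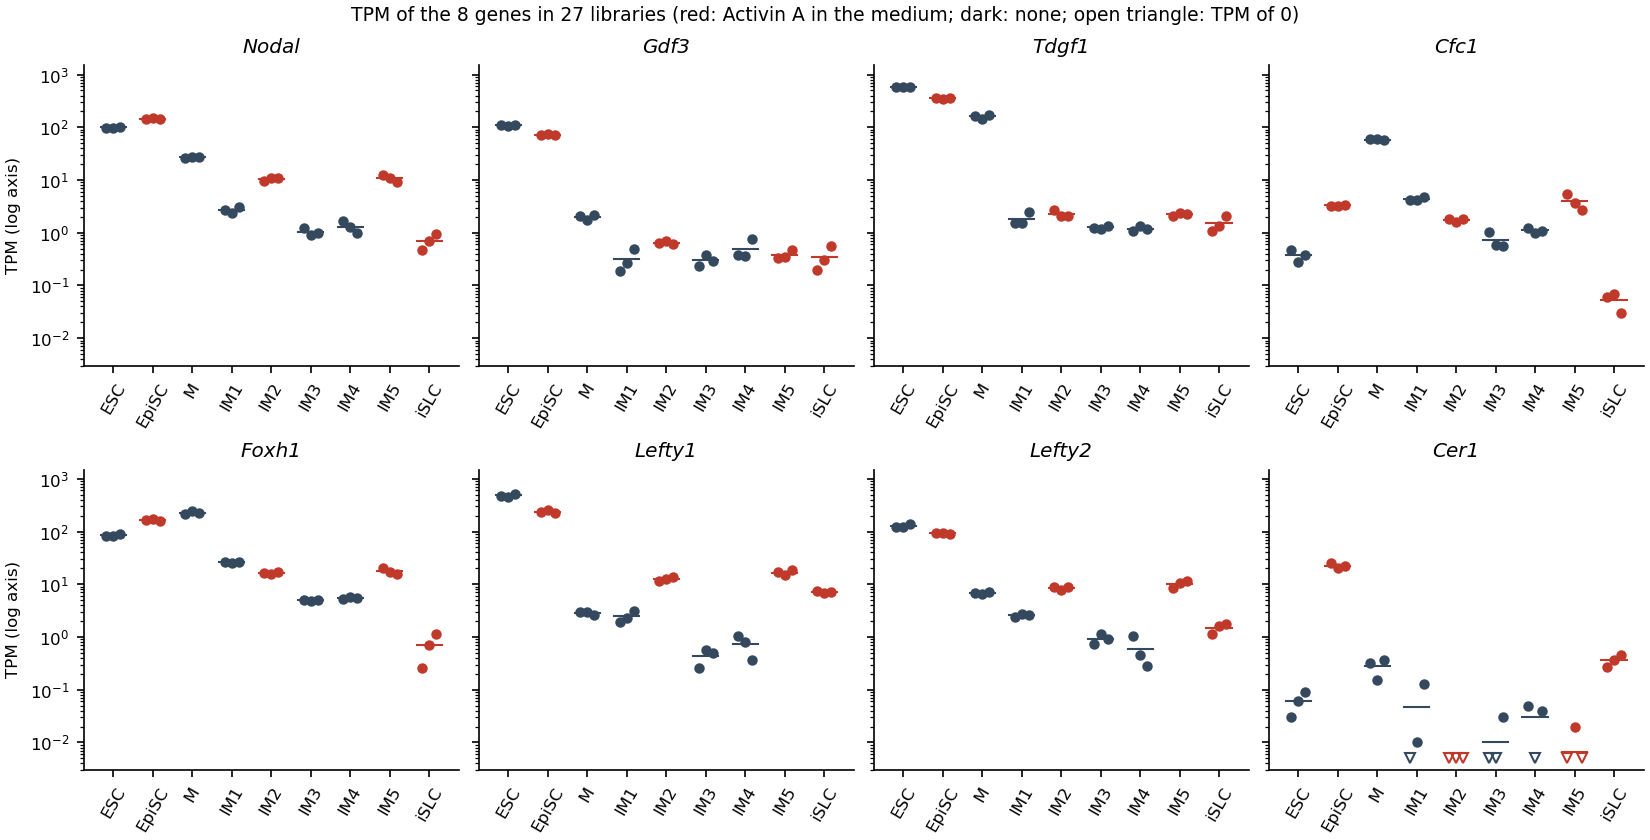
TPM of Nodal, Gdf3, Tdgf1, Cfc1, Foxh1, Lefty1, Lefty2 and Cer1 in each library on a log axis, by group, with a line at the mean of 3 libraries. Red groups had Activin A in the medium and open triangles mark a TPM of 0. Nodal, Lefty1 and Lefty2 sit higher in IM2 and IM5 than in IM1, IM3 and IM4, while Cer1 is above 1 TPM in EpiSC alone.

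Each of the 8 genes differed somewhere among the 9 groups (adjusted p from 2.4e-30 to 2.5e-22, edgeR quasi-likelihood test), as did 96.1% of all genes tested. A gene is called differentially expressed (DE) between 2 groups where its adjusted p was at most 0.01, its fold change at least 2 and its mean normalized count at least 100 both over all libraries and in 1 of the groups compared. From ESC to EpiSC 3 of the 8 genes rose and 0 fell, where 8.05% of all genes tested were DE, 3.73% higher and 4.32% lower. From EpiSC to M 6 fell and 1 rose, where 14.5% of all genes were DE, 6.78% higher and 7.7% lower. The ESC to EpiSC tally turned to 2 higher (Cfc1 and Cer1) and 1 lower (Lefty1) with DESeq2 size factors, the DESeq2 test, a GC offset or limma, and Cfc1 failed the count minimum with only these groups compared. From M to IM1 6 fell and 0 rose, with 15.6% of all genes DE, 9.7% higher and 5.93% lower. From M to IM3 7 fell and 0 rose, with 14.9% of all genes DE, 9.25% higher and 5.65% lower. The share of the 8 genes that fell was thus above the share of all genes at each step out of the epiblast-like state, and their median log2 fold change was -3.05 from EpiSC to M, beside -0.056 over all genes tested.

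**Figure D2:**
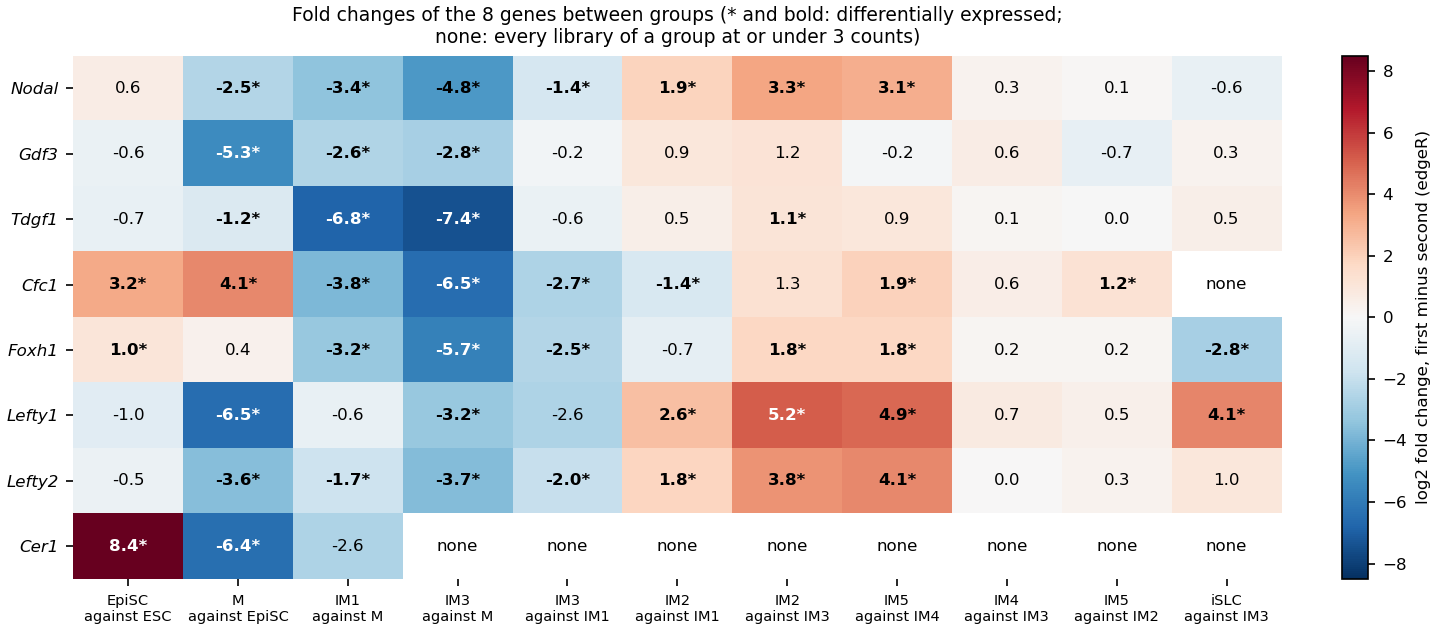
log2 fold changes of the 8 genes (rows) in 11 comparisons (columns), first group minus second, from edgeR. Bold values with a star are DE, and no value is given where every library of a group held at most 3 counts. Apart from Cfc1, which rose from EpiSC to M, and Foxh1, the genes are lower in M than in EpiSC, and Nodal, Foxh1, Lefty1 and Lefty2 are DE and higher in both comparisons that add Activin A to a medium with retinoic acid.

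Nodal lies on chromosome 10 (ENSMUSG00000037171, chr10:61417972-61425338, GRCm38, plus strand). It was at 97.9, 98.7 and 101 TPM in ESC and at 146, 149 and 143 TPM in EpiSC, so the groups did not overlap, but the log2 difference of 0.60 ± 0.097 (SE) was under the 2-fold limit (adjusted p = 8.0e-06, edgeR). In M it stood at 26.3, 27.5 and 27.3 TPM, so it fell by 2.51 ± 0.10 on the log2 scale from EpiSC (adjusted p = 5.6e-17). The highest level of the ligand was thus found in EpiSC, which had Activin A. ESC and M, without it, came next, and iSLC, with it, was lowest at a mean of 0.70 TPM. The medium of M also differed from that of EpiSC in BMP4 and LY294002, and the part of Activin A in these stage differences was not tested.

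Nodal was low but measurable in every intermediate mesoderm library. Its TPM was 2.68, 2.41 and 3.01 in IM1, 1.25, 0.89 and 1.00 in IM3, and 1.66, 1.28 and 0.99 in IM4. With Activin A it was 9.68, 10.86 and 11.04 TPM in IM2 and 12.2, 10.8 and 9.34 TPM in IM5, so that no library with Activin A overlapped one without. The order of group means was EpiSC, ESC, M, IM5, IM2, IM1, IM4, IM3 and iSLC, in which IM5 and IM2 overlapped each other, as did IM4 and IM3, and IM3 and iSLC. In the iSLC libraries Nodal was at 0.46, 0.71 and 0.93 TPM.

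The promoter-side sequences of Nodal and Cer1 are shown because Nodal rose with Activin A in the media with retinoic acid (IM2 to IM5) while Cer1 stayed at or under 3 counts per library in them. Each is the 250 bases before the RefSeq transcript start on GRCm38.p6, written 5′ to 3′ on the gene's strand. Nodal is chr10:61417722-61417971 on the plus strand and Cer1 is chr4:82885152-82885401 on the minus strand, and capitals mark the letters CAGAC.
Nodal: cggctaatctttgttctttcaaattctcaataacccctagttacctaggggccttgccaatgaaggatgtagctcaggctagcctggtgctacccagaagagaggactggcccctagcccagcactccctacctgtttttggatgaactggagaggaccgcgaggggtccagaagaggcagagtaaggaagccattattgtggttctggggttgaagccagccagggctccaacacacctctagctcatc
Cer1: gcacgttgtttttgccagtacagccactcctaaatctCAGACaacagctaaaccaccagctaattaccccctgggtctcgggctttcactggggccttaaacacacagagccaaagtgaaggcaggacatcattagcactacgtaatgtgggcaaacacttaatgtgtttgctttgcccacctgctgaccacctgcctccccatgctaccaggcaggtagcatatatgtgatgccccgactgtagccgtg

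RefSeq promoter windows were matched for 4 of the 8 genes, Nodal, Tdgf1, Cfc1 and Cer1, each window running from 250 bases before the start to 50 after it. Both strands were searched for the letters bound by FoxH1, AATCCACA and AATACACA, for the Smad palindrome GTCTAGAC, for the short Smad letters CAGAC and for TATAAA. The FoxH1 and palindrome letters were in none of the 4 windows, and in 0.857%, 0.981% and 0.213% of 32807 windows of all genes. CAGAC was in the windows of Tdgf1, Cfc1 and Cer1, as it was in 49.6% of all windows, and TATAAA was in none of the 4 against 13.6%. These letters overlap no other motif searched, and they describe these windows only.

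Gdf3, the other ligand, lies on chromosome 6 (ENSMUSG00000030117, chr6:122605403-122610087, minus strand) and is a TGFβ family member known from pluripotent cells. Its level was 109, 106 and 111 TPM in ESC and 70.4, 75.2 and 71.6 TPM in EpiSC, a log2 difference of -0.56 ± 0.096 that did not reach 2-fold. It was at 2.09, 1.71 and 2.16 TPM in M, so it fell by 5.35 ± 0.13 on the log2 scale from EpiSC (adjusted p = 2.3e-22, edgeR), more than the other ligand or either coreceptor at that step. In every later library it was between 0.19 and 0.75 TPM.

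The Activin A media did not separate Gdf3. It was at 0.65, 0.69 and 0.60 TPM in IM2 and at 0.33, 0.34 and 0.48 TPM in IM5, beside 0.23, 0.38 and 0.29 TPM in IM3 and 0.38, 0.36 and 0.75 TPM in IM4. IM2 was above IM3 in all libraries whereas IM5 and IM4 overlapped. Averaged over both pairs the log2 difference was 0.50 ± 0.22 (adjusted p = 0.060, edgeR), with a 95% interval of 0.064 to 0.93.

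Tdgf1 encodes the EGF-CFC coreceptor of the early embryo and lies on chromosome 9 (ENSMUSG00000032494, chr9:110939603-110946158, minus strand). Of its 75-base sequence words 5.99% are shared with the processed pseudogene Tdgf1-ps1, so its counts depend on how such fragments were assigned. It was at 593, 572 and 582 TPM in ESC, the highest level of the 8 genes, at 358, 347 and 365 TPM in EpiSC and at 167, 145 and 168 TPM in M. It fell by 1.22 ± 0.10 on the log2 scale from EpiSC to M and fell by 6.80 ± 0.15 from M to IM1 (adjusted p = 2.9e-10 and 2.4e-21, edgeR). The coreceptor thus stayed abundant at the mesoderm stage, where Gdf3, Lefty1 and Cer1 were already low, and was between 1.07 and 2.68 TPM in every intermediate mesoderm library.

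With Activin A, Tdgf1 was at 2.68, 2.04 and 2.05 TPM in IM2 and at 2.11, 2.37 and 2.24 TPM in IM5. Without it, Tdgf1 was at 1.24, 1.18 and 1.35 TPM in IM3 and at 1.07, 1.35 and 1.16 TPM in IM4, and the groups did not overlap. The log2 difference of IM2/5 over IM3/4 was 1.01 ± 0.16 (adjusted p = 1.0e-05, edgeR), just over the 2-fold limit. It was 0.94 without IM2 replicate 1, 0.98 without IM3 replicate 3 or without IM4 replicate 1 and 0.99 without IM5 replicate 2, so each of these libraries decided the call. It was also under the limit with an offset for effective gene length (0.92) and by limma on log2(TPM + 1) (0.54), and with only the groups compared (1.02) it failed the count minimum. The same 3 settings ended the call in IM2 over IM3.

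Cfc1, the coreceptor known for left-right patterning, lies on chromosome 1 (ENSMUSG00000026124, chr1:34535648-34544313, plus strand), and 27.8% of its exonic bases overlap Prss40 on the opposite strand. No source says if strand entered the counting, so reads of the 2 genes may not be told apart there. Cfc1 was at 0.46, 0.28 and 0.37 TPM in ESC, 3.23, 3.21 and 3.42 TPM in EpiSC and 58.8, 60.2 and 56.6 TPM in M. It rose by 3.24 ± 0.27 on the log2 scale from ESC to EpiSC and by 4.06 ± 0.17 from EpiSC to M (adjusted p = 2.2e-11 and 9.6e-19, edgeR). It was the only one of the 8 genes that was DE and higher in M than in EpiSC, and its peak at M was shared only by Foxh1, while the other coreceptor fell at the same step.

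In the intermediate mesoderm media Cfc1 was at 4.19, 4.26 and 4.85 TPM in IM1, at 1.80, 1.58 and 1.86 TPM in IM2 and at 5.44, 3.59 and 2.72 TPM in IM5. It was at 1.02, 0.58 and 0.56 TPM in IM3 and 1.23, 0.99 and 1.09 TPM in IM4, below every IM2 and IM5 library. IM2/5 exceeded IM3/4 by 1.60 ± 0.17 on the log2 scale, and IM5 exceeded IM2 by 1.24 ± 0.19 (adjusted p = 5.9e-09 and 7.6e-05, edgeR). IM5 replicate 1, the highest of these libraries, carried both calls. Without it the differences were 1.41 and 0.86, and neither was called, the first because of the count minimum and the second being under the 2-fold limit. That of IM5 over IM4, which went from 1.94 to 1.57, also failed only the count minimum. The call of IM2/5 over IM3/4 was also lost by limma (0.94) and, at the count minimum, with only the groups compared (1.61), as was that of IM5 over IM2 (0.80 and 1.23).

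Foxh1 encodes the forkhead partner of Smad2 and lies on chromosome 15 (ENSMUSG00000033837, chr15:76668225-76669948, minus strand). It was at 82.8, 81.3 and 91.2 TPM in ESC, 166, 175 and 155 TPM in EpiSC and 214, 242 and 228 TPM in M. The rise from ESC to EpiSC was 1.01 ± 0.11 on the log2 scale (adjusted p = 2.4e-08, edgeR) and became 0.96 without ESC replicate 1 and 0.97 without EpiSC replicate 2, under the 2-fold limit. It was also under it with DESeq2 size factors (0.97), the DESeq2 test (0.97), a GC offset (0.85) and limma (0.95). Foxh1 was thus highest where the ligand had already fallen, and M and EpiSC did not overlap, although the log2 difference between them was only 0.38 ± 0.11.

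Foxh1 then fell by 3.20 ± 0.12 on the log2 scale from M to IM1 (adjusted p = 1.9e-17, edgeR). It was at 26.7, 25.7 and 26.5 TPM in IM1, at 16.3, 15.9 and 17.3 TPM in IM2 and at 20.0, 16.9 and 15.6 TPM in IM5. In IM3 it was at 4.98, 4.86 and 5.00 TPM and in IM4 at 5.23, 5.62 and 5.53 TPM, lower than in any IM1, IM2 or IM5 library. IM3 was 2.51 ± 0.15 below IM1 on the log2 scale, and IM2/5 was 1.77 ± 0.11 above IM3/4 (adjusted p = 7.7e-13 and 8.9e-13). The iSLC libraries held 0.26, 0.70 and 1.16 TPM.

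Lefty1 (ENSMUSG00000038793, chr1:180935022-180938400) and Lefty2 (ENSMUSG00000066652, chr1:180893108-180899103) are neighbours on the plus strand of chromosome 1 and encode secreted inhibitors that bind Nodal and its coreceptors. Their coding sequences have 1107 bases each and are identical at 91.9% of positions, with a longest identical stretch of 140 bases. Of the 75-base words of Lefty1, 11.7% also occur in Lefty2, and 7.77% of those of Lefty2 occur in Lefty1, so the split of fragments between them is an estimate. The 60 coding bases in which they differ most, positions 34 to 93 from the start codon, are printed from the GENCODE M21 transcripts to show what separates them, with the 18 positions that differ in capitals.
Lefty1: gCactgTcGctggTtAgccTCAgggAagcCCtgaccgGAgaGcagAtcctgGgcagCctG
Lefty2: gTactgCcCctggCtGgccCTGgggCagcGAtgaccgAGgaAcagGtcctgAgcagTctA

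Lefty1 was at 472, 454 and 526 TPM in ESC and at 237, 253 and 227 TPM in EpiSC, a log2 difference of -0.98 ± 0.096, just short of 2-fold. Leaving out ESC replicate 1 or EpiSC replicate 2 took it to -1.03 and -1.02, past the limit, as did DESeq2 size factors (-1.02), the DESeq2 test (-1.02), a GC offset (-1.12) and limma (-1.01). In M it was at 3.03, 3.04 and 2.60 TPM, so it fell by 6.48 ± 0.14 on the log2 scale from EpiSC (adjusted p = 1.6e-22, edgeR), more than any other of the 8 genes at that step. Lefty2 was at 123, 123 and 141 TPM in ESC, 94.1, 94.5 and 89.2 TPM in EpiSC and 6.91, 6.42 and 7.16 TPM in M, and fell by 3.60 ± 0.12. The paralogs therefore fell unequally, and their order turned: Lefty1 made up 72.1% ± 0.67 (SD, n = 3) of the summed TPM in EpiSC and 29.8% ± 2.8 in M.

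Without Activin A, Lefty1 was at 1.95, 2.33 and 3.09 TPM in IM1, 0.26, 0.56 and 0.50 TPM in IM3 and 1.03, 0.80 and 0.36 TPM in IM4. With it, Lefty1 was at 11.5, 12.8 and 13.5 TPM in IM2 and 16.7, 15.1 and 18.3 TPM in IM5, above all of these by a wide gap. IM2/5 exceeded IM3/4 by 5.04 ± 0.15 on the log2 scale (adjusted p = 6.7e-19, edgeR), the largest difference of the 8 genes and close to that of Eomes, an Activin target, at 5.08 ± 0.10.

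Lefty2 was at 2.42, 2.76 and 2.59 TPM in IM1, 0.74, 1.14 and 0.90 TPM in IM3 and 1.06, 0.45 and 0.28 TPM in IM4. In IM2 it was at 8.82, 7.81 and 8.97 TPM and in IM5 at 8.38, 10.7 and 11.4 TPM, and IM2/5 exceeded IM3/4 by 3.95 ± 0.13 on the log2 scale (adjusted p = 1.5e-17, edgeR). The estimated effective length of Lefty2 moved with the low groups, at 1091 to 1731 bases in IM3 and 2234 to 2271 bases in IM4, so the mean normalized count was 47.0 in IM4 and 44.7 in IM3 while the mean TPM was 0.597 and 0.927, with overlapping libraries.

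The summed TPM of the pair is less exposed to how shared fragments were split. It was 21.1 ± 1.2 in IM2 and 26.9 ± 2.5 in IM5, against 1.37 ± 0.35 in IM3 and 1.33 ± 0.73 in IM4 (SD, n = 3). The mean log2(TPM + 1) was 3.43 higher with Activin A (p = 0.005, two-sided exact permutation test within each CHIR99021 level), which is the smallest p that the 400 assignments allow. Relative to the ligand, the sum was 6.18 times the TPM of Nodal in ESC, 2.27 times in EpiSC, 0.360 times in M and between 0.961 and 2.54 times in the intermediate mesoderm groups. In iSLC it was 13.4 times, where Nodal itself was under 1 TPM.

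**Figure D3:**
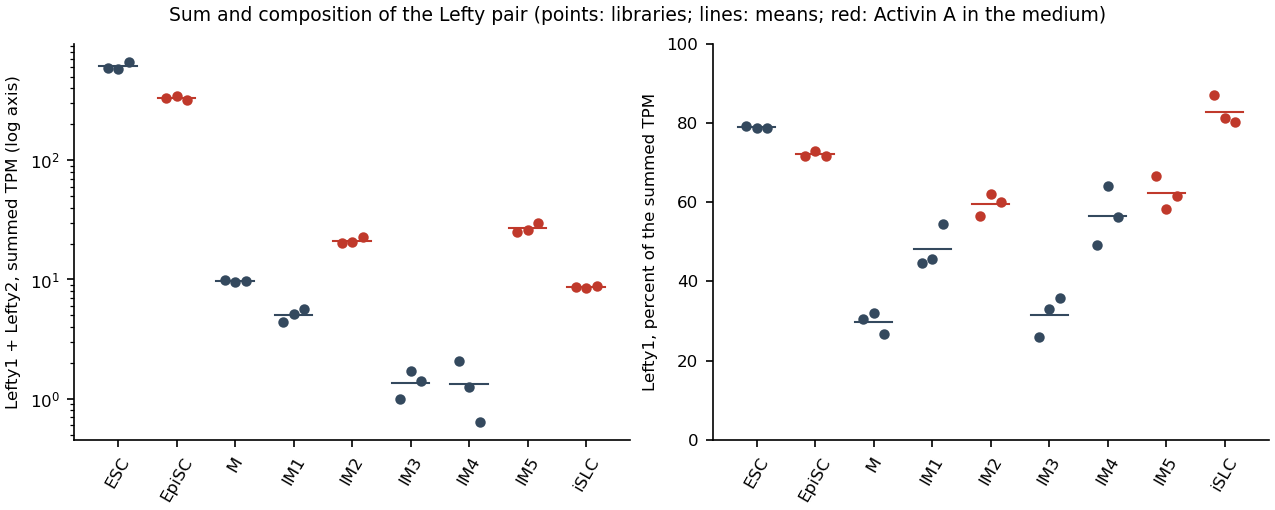
Left, the summed TPM of Lefty1 and Lefty2 per library on a log axis. Right, the share of Lefty1 in that sum in percent, with lines at the means of 3 libraries and Activin A groups in red. The sum in IM2 and IM5 is at 20.3 to 29.7 TPM, above M, IM1, IM3 and IM4, and the share of Lefty1 runs from 29.8% in M to 82.9% in iSLC.

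Cer1 encodes Cerberus-like 1, a secreted antagonist that binds Nodal and BMP ligands, and lies on chromosome 4 (ENSMUSG00000038192, chr4:82881751-82885148, minus strand). It was at 24.8, 20.2 and 22.2 TPM in EpiSC (4701 counts over the group) and at 0.03, 0.06 and 0.09 TPM in ESC (10 counts), a ratio of 358 with a 95% counting interval of 195 to 747. In M it was at 0.32, 0.15 and 0.37 TPM, so it fell by 6.38 ± 0.28 on the log2 scale (adjusted p = 2.8e-16, edgeR). Cer1 was thus largely a transcript of the EpiSC libraries, which were at least 1162-fold higher than IM2, where no read was counted in any of the 3 libraries. This is the lower end of the 95% counting interval, and the floor of 3 counts over the group gives a ratio of 1429. The other media with retinoic acid held 1 count in IM3, 4 in IM4 and 1 in IM5 over each group, so no difference with Activin A was detectable at this depth and no fold is given. The counting intervals and floors cover counting error only.

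The Activin A comparison was made between media that otherwise matched, IM2 with IM3 and IM5 with IM4, and then over both pairs. Of the 8 genes 5 rose in IM2 over IM3 (Nodal, Tdgf1, Foxh1, Lefty1 and Lefty2), where 3.76% of all genes were DE, 2.44% higher and 1.32% lower. In IM5 over IM4 5 rose (Nodal, Cfc1, Foxh1, Lefty1 and Lefty2), where 4.06% of all genes were DE, 2.62% higher and 1.45% lower. Over both pairs 6 rose and 0 fell, with 3.9% of all genes DE, 2.52% higher and 1.38% lower, and the median log2 difference was 1.68 over the 8 genes, or 1.77 without Cer1, beside 0 over all genes. The libraries of IM2/5 lay above all those of IM3/4 for the same 6 genes, Nodal, Tdgf1, Cfc1, Foxh1, Lefty1 and Lefty2, as they did for 15.5% of all genes tested, while 14.4% of all genes lay below.

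**Figure D4:**
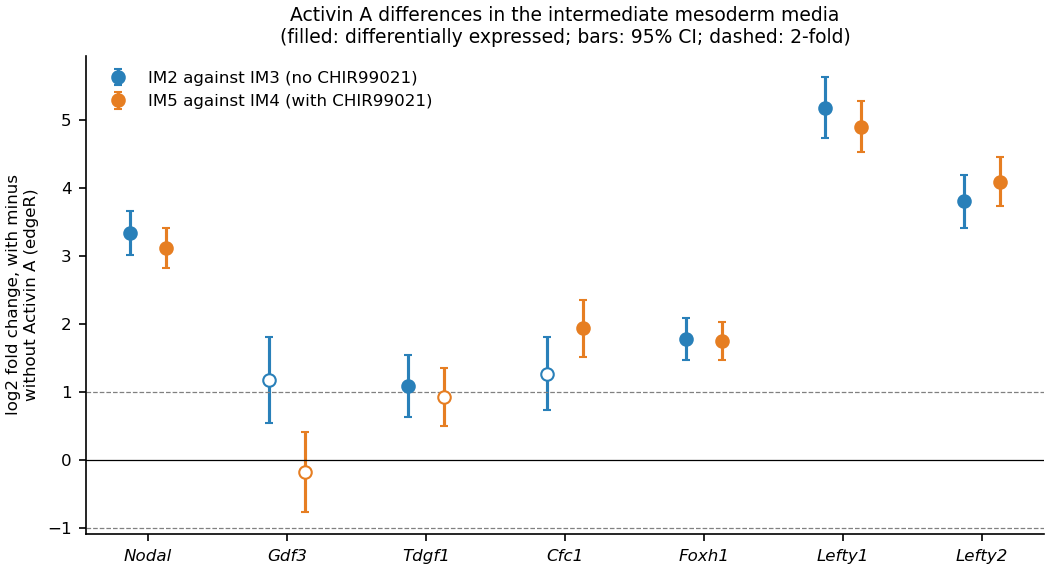
log2 fold changes with 95% confidence intervals from edgeR, with minus without Activin A, for 7 of the 8 genes, in blue without CHIR99021 (IM2 against IM3) and in orange with it (IM5 against IM4). Filled points are DE and dashed lines mark a 2-fold change. Lefty1 (5.18 and 4.90), Lefty2 (3.8 and 4.09) and Nodal (3.33 and 3.12) lie highest, and Cer1 is left out because its groups held at most 3 counts per library.

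The largest differences of the 8 genes were those of the Lefty antagonists and the ligand they inhibit. The log2 difference of IM2/5 over IM3/4 was 5.04 for Lefty1 and 3.95 for Lefty2, beside 3.23 ± 0.11 for Nodal (adjusted p = 9.8e-18, edgeR), and below these came Foxh1, Cfc1 and Tdgf1. The size of the Activin A difference with CHIR99021 was set against that without it by an interaction term, and 0 of the 8 genes passed by edgeR, where 0.216% of all genes did. The difference of differences was -0.22 ± 0.25 for Nodal, -0.28 ± 0.43 for Lefty1, 0.29 ± 0.33 for Lefty2, -0.030 ± 0.22 for Foxh1 and 0.67 ± 0.37 for Cfc1 on the log2 scale. Only Gdf3, at -1.36 ± 0.44, had an unadjusted p under 0.05, and its adjusted p was 0.24 by edgeR and 0.0093 by DESeq2, which called it and no other of the 8.

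The IM2/5 and IM3/4 libraries also differed in marker genes and in GC trend, and so did the libraries of other groups. The part of the marker genes in these results was not tested. The summed CPM (counts scaled to library total) of 6 red blood cell genes were 0.380 to 0.869 in IM2/5 and 6.31 to 20.1 in IM3/4, and of these genes Hbb-bs and Hbb-bt were at or under 3 counts in IM2 and IM5, and Slc4a1 in IM2. The median log2 CPM of GC-rich over GC-poor genes, relative to the mean of all libraries, was -0.093 to 0.418 in IM2/5 and -0.389 to -0.079 in IM3/4, and with an offset for GC content the 6 genes were all called. The summed TPM of 6 definitive endoderm markers was 52.2 to 63.0 in IM2/5 and 17.8 to 21.98 in IM3/4, and that of 5 visceral endoderm markers 554 to 783 and 352 to 459, with no marker of either list at or under 3 counts. The 6 early mesoderm markers summed to 21.6 to 25.4 TPM and 1.79 to 2.44 TPM, with Msgn1 at or under 3 counts in all 4 groups. Most of the IM2/5 sum was Eomes, at means of 18.2 TPM in IM2 and 15.0 TPM in IM5, and T and Mixl1 were also higher there. Mesp1 was not, with a log2 difference of -0.061 ± 0.23 (adjusted p = 0.88, edgeR), and Tbx6 was at 0.31 to 0.90 TPM over the 4 groups. In IM1, which had no Activin A, the definitive endoderm sum was 54.5 to 62.7 TPM, within the range of IM2/5. The visceral endoderm sum there was 348 to 381 TPM and the early mesoderm sum 9.07 to 11.4 TPM.

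The media of IM3 and IM1 differed in retinoic acid alone. Their libraries also differed in the summed CPM of the red blood cell genes, at 6.31 to 20.1 in IM3 and 0.929 to 1.39 in IM1. The GC trend was -0.389 to -0.079 in IM3 and 0.105 to 0.224 in IM1. The part of such library differences in this comparison was not tested. Of the 8 genes 4 fell (Nodal, Cfc1, Foxh1 and Lefty2), with 6.32% of all genes DE, 2.6% higher and 3.72% lower. Nodal fell by 1.43 ± 0.19, Cfc1 by 2.66 ± 0.24 and Lefty2 by 1.98 ± 0.23 on the log2 scale (adjusted p = 8.1e-07, 1.6e-10 and 1.0e-07, edgeR). Lefty1 was lower by a similar amount, -2.59 ± 0.30, with no overlap of libraries, and failed only the count minimum, since its mean normalized count in IM1 was 99.7. It passed without IM1 replicate 1 (-2.67), IM1 replicate 2 (-2.63), IM3 replicate 2 (-3.02) or IM3 replicate 3 (-2.42). Retinoic acid and Activin A together separated IM2 from IM1: 3 genes rose, Nodal by 1.91 ± 0.13, Lefty1 by 2.59 ± 0.14 and Lefty2 by 1.83 ± 0.14 on the log2 scale, and Cfc1 fell by 1.39 ± 0.19, where 3.5% of all genes were DE, 1.94% higher and 1.56% lower. By limma on log2(TPM + 1), which understates changes of low genes, Nodal (-0.85) and Lefty2 (-0.90) in IM3 over IM1 and Cfc1 (-0.98) in IM2 over IM1 were under the 2-fold limit, and Cfc1 in IM3 over IM1 failed the count minimum with only those groups. The comparisons share IM1, IM2 or IM3 libraries, and their values are set side by side only.

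CHIR99021 alone gave little. Of the 8 genes 0 were DE in IM4 over IM3 by edgeR or by DESeq2, with 0.096% of all genes DE, all of them lower (0.0% higher), and 0 had an unadjusted p under 0.05. Intervals were wide for the low genes, as the SE of the log2 difference was 0.23 for Nodal and 0.42 for Lefty1. In IM5 over IM2 Cfc1 alone was DE, as described above, beside 0.23% of all genes, 0.0432% higher and 0.187% lower, and Lefty1 was next with a log2 difference of 0.46 ± 0.11 (adjusted p = 0.011, edgeR).

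The iSLC libraries were set against IM3, from which they differ in the forced factors, the medium, the time and the sort. Here 2 of the 8 genes were DE, beside 19.2% of all genes, 10.3% higher and 8.9% lower. Lefty1 rose by 4.12 ± 0.25 on the log2 scale, from the 0.26 to 0.56 TPM of IM3 to 7.57, 6.89 and 7.09 TPM, and Foxh1 fell by 2.80 ± 0.25 (adjusted p = 2.1e-13 and 4.4e-10, edgeR). With only these groups compared Foxh1 failed the count minimum. Lefty2 was at 1.12, 1.60 and 1.74 TPM, a log2 difference of 0.99 ± 0.26 (adjusted p = 0.0016). Lefty1 thus made up 82.9% ± 3.7 of the pair (SD, n = 3), above every library of the other groups. Nodal had a log2 difference of -0.61 ± 0.25 (adjusted p = 0.033) and its libraries overlapped those of IM3.

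Cfc1 and Cer1 passed the p and fold limits in iSLC against IM3 and failed the count minimum. Cfc1 was at 0.06, 0.07 and 0.03 TPM, which is 5 counts over the group, and was 13.8 times higher in IM3 with a 95% counting interval of 5.53 to 44.4. Cer1 was at 0.27, 0.37 and 0.46 TPM, 63 counts over the group, and the 1 count of IM3 gave a ratio of 44.7 with an interval of 7.74 to 1793.

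The other genes of the pathway were counted by list. Of 4 receptors (Acvr1b, Acvr1c, Acvr2a and Acvr2b) 0 were DE in IM2/5 over IM3/4, with a median log2 difference of 0.14, and of 4 signal transducers (Smad2, Smad3, Smad4 and Trim33) 0 were DE, with a median of -0.068. Both medians were near the 0 of all genes tested. Both counts of 0 are near the 3.9% share of all genes. Smad2 was at 57.3 to 80.9 TPM and Acvr2b at 9.69 to 13.9 TPM over the IM2 to IM5 libraries, whereas Acvr1c was at 0 to 0.11 TPM. Of 6 genes for ligand processing and partners 1 fell, the proprotein convertase Pcsk6, by 1.35 ± 0.049 on the log2 scale, and 0 rose (median 0.27). Of all genes 2.52% were DE and higher and 1.38% DE and lower.

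Of 14 other antagonists and feedback inhibitors 2 rose and 1 fell in IM2/5 over IM3/4, with a median of 0.20. The shares of all genes were 2.52% DE and higher and 1.38% DE and lower. Pmepa1, a transmembrane feedback inhibitor that binds Smads, rose by 2.21 ± 0.093 on the log2 scale, from 8.90 to 18.2 TPM across IM3 and IM4 to 42.7 to 65.4 TPM across IM2 and IM5. Wfikkn1, which encodes a secreted binder of GDF ligands, rose by 1.08 ± 0.12. Dact2, which promotes the degradation of Nodal receptors, fell by 1.28 ± 0.069, from 102 to 135 TPM to 32.4 to 57.3 TPM. Dand5, a Cerberus family antagonist known from the node, was at 2.77 to 3.64 TPM across these 4 groups, with a log2 difference of 0.19 ± 0.092 (adjusted p = 0.084, edgeR).

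Of 14 Activin and Nodal targets 7 rose and 0 fell, where 2.52% of all genes were DE and higher and 1.38% lower. The median log2 difference of the targets was 2.08. Eomes, a T-box factor of mesoderm and endoderm, went from 0.41 to 0.56 TPM across IM3 and IM4 to 14.6 to 18.5 TPM across IM2 and IM5. The primitive streak gene T (brachyury) rose by 3.28 ± 0.27, Mixl1 by 2.49 ± 0.094 and the chemokine receptor gene Cxcr4 by 2.44 ± 0.091 on the log2 scale. Sox17 rose by 1.72 ± 0.099, Lhx1 by 1.31 ± 0.20 and Foxa2 by 1.07 ± 0.072. T stayed at 2.57 to 3.31 TPM even with Activin A, beside 463 to 529 TPM in M. Eomes, T and Mixl1 are also in the early mesoderm list, and Sox17, Foxa2 and Cxcr4 in the definitive endoderm list.

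**Figure D5:**
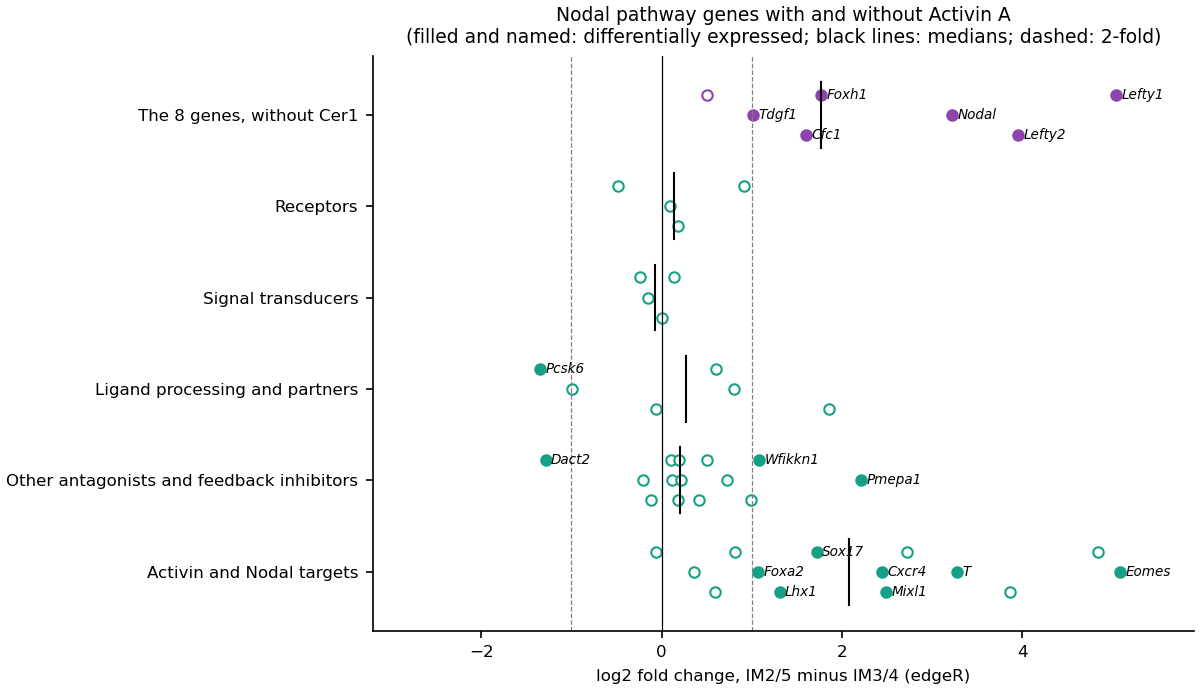
Each point is a gene, placed by its log2 fold change of IM2/5 over IM3/4 from edgeR, by list, with a black line at the list's median and dashed lines at 2-fold. Filled and named genes are DE. Of all genes 2.52% are DE and higher. Beside them stand 0 of 4 receptors, 0 of 4 signal transducers, 0 of 6 processing genes and partners, 2 of 14 other antagonists and 7 of 14 targets. In the top line, where Cer1 is left out, 6 of the 7 genes drawn are DE and higher. In the processing and antagonist lists 1 gene each is DE and lower, as are 1.38% of all genes.

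From ESC to EpiSC, when Foxh1, Cfc1 and Cer1 rose, 11 of the 14 targets rose and 0 fell, with a median of 3.53, where 8.05% of all genes were DE and 3.73% DE and higher. The 5 largest differences were those of Lhx1 (7.35 ± 0.28), T (6.60 ± 0.18), Fgf8 (6.04 ± 0.16), the organizer gene Gsc (5.96 ± 0.22) and Mixl1 (5.70 ± 0.098) on the log2 scale. In the list of processing genes and partners Gdf1, a Nodal partner ligand, rose by 2.16 ± 0.37 and Pcsk6 fell by 1.87 ± 0.065. Of the 4 receptors, 4 signal transducers and 14 other antagonists 0 were DE at this step, which is near the share of all genes.

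Across the 9 groups each gene was compared with 15290 others by the correlation of group mean log2 CPM, a description over 9 points that share libraries and the large difference between early and late stages. Nodal was most like Gm37913, the Wnt ligand gene Wnt8a and the proton pump gene Atp12a (Pearson's r = 0.99 each), and Tdgf1 was most like its own pseudogene Tdgf1-ps1 (r = 1.00). Foxh1 was most like Rassf7 (r = 1.00), Gdf3 like the pseudogene Gm6284 (r = 1.00), Lefty1 like Tcf15 (r = 0.97) and Lefty2 like Rab3ip (r = 0.99), and after Map2k3os came the pluripotency gene Sox2 (r = 0.98). Cer1 was most like Macc1 (r = 0.98), and Cfc1, whose best match was Tubb5 (r = 0.96), had the weakest likeness to its best match.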

How the data were processed

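RNA of 27 mouse libraries in 9 groups was sequenced as paired reads. According to the study's methods and the submitters' processing notes, the authors trimmed reads with cutadapt 1.9.1, aligned them to GRCm38 with STAR 2.5.2a and quantified genes with RSEM 1.3.0. The expected counts deposited by the authors are RSEM estimates of fragments per gene without scaling between libraries, the deposited TPM are these per effective length and library, and the deposited FPKM are scaled per length and library total. They were rounded to whole numbers for the count models. Replicates were not pooled. Whether the authors' counting used strand is not given in the sources used here. Group and replicate came from the labels.

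Genes were named from GENCODE M21 (GRCm38), which matched 48435 of 48795 identifiers. Group differences were fitted over all 27 libraries with edgeR 4.0.16 (TMM factors, filterByExpr, quasi-likelihood test, Benjamini-Hochberg adjustment over 20839 genes) in R 4.3.3, and the script was tested on simulated data. The study's thresholds defined DE. Alternatives used DESeq2 1.42.0, limma 3.58.1, and FPKM. A fixed floor of 3 counts was used for all libraries, whose totals were 35923040 to 84876603 counts, and at or under it a group was read as not detected. Genes named beyond the 8 were those of the pathway lists that were DE in IM2/5 against IM3/4, the 5 largest changes of those lists in EpiSC against ESC, and the 3 most alike genes of each member. Gdf1, Dand5, Smad2, Acvr2b, Acvr1c and the cell type markers given singly were named outside that rule, after their values were seen. The members and lists were chosen with earlier results of these data known. Replicate pairs differed beyond sampling noise (lowest chi-square per degree of freedom 3.46).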

Additional observations from a re-analysis of the deposited data

How the results depend on the processing

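Counts of called genes mostly held. The alternatives were DESeq2 size factors, the DESeq2 test, an offset for effective gene length or GC content, no low-count filter, a replicate block, limma on log2(TPM + 1), no count or fold minimum, an adjusted p under 0.05, only the groups compared, and each library left out. Of the counts, of the Lefty sum and of the ratios of levels, 293 alternative values stayed within 1.5 times or kept their side of the threshold, and 7 did not. EpiSC against ESC had 8 called genes with no fold minimum, IM5 against IM2 had 0 by limma and with only the groups compared, iSLC against IM3 had 4 with no count minimum and 1 with only the groups compared, and the interaction had 1 (Gdf3) by DESeq2. Leaving out 1 library gave 0 to 1 genes in IM5 against IM2, 5 to 6 in IM2/5 against IM3/4, and 3.32 to 3.54 for the Lefty sum. IM2/5 against IM3/4 had 4 by limma and with only the groups compared. Replicate numbers did not pair the libraries (mean correlation of same-numbered deviations 0.002, of others -0.001). With the replicate number as a block, 6 genes were called in IM2/5 against IM3/4 and no count of the 8 genes changed in any comparison.

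Of the log2 fold changes of single genes, 1726 alternative values kept direction and call, 35 lost the call, 34 gained it and 28 changed sign, all in differences that were not called. Leaving out 1 library gave -0.47 to 0.21 for Gdf3 and -4.50 to 0.11 for Cer1 in IM3 against IM1, -0.34 to 0.11 for Gdf3 in IM5 against IM4, -0.59 to 0.34 for Lefty2 in IM4 against IM3, -0.22 to 0.58 for Gdf3 in iSLC against IM3, and, in IM5 against IM2, -0.047 to 0.21 for Nodal, -0.095 to 0.13 for Tdgf1 and -0.0074 to 0.24 for Foxh1. In the interaction it gave -0.23 to 0.004 for Tdgf1, -0.18 to 0.066 for Foxh1, -0.70 to 0.31 for Lefty1 and -0.023 to 0.91 for Lefty2. With the effective length offset, IM4 against IM3 was -0.013 for Tdgf1 and -0.59 for Lefty2, IM5 against IM2 was 0.040 for Tdgf1, and the interaction was 0.053 for Tdgf1. By limma, IM4 against IM3 was -0.042 for Tdgf1 and -0.30 for Lefty2, and the interaction 0.040 for Tdgf1 and 0.13 for Lefty1. IM5 against IM2 was 0.026 for Tdgf1 with the GC offset and 0.027 with the GC offset and the replicate block. The cause was not tested. Cer1 has no fold among IM2 to IM5, where depth allows none.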
